A study of Saccharomyces cerevisiae with 12 samples.

Results

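The nuclear genes of oxidative phosphorylation were followed through a yeast microarray study of histone H2B. The set holds 37 of the 5449 genes tested, chosen by name but with earlier results of these data known, and each has 1 probe set on the array. It covers 2 NADH dehydrogenases, 4 subunits of complex II, 9 of complex III, cytochrome c, 9 subunits of complex IV and 12 of the ATP synthase. In the H2B R95A strain, alanine replaces arginine 95 of histone H2B, and H2B WT is its wild type counterpart. Both strains were grown to an OD600 of 0.7 and harvested without drug or after 30 min in 200 ng/ml rapamycin. The 4 groups were H2B R95A with rapamycin, H2B WT with rapamycin, untreated H2B R95A and untreated H2B WT, with 3 arrays in each, numbered 1 to 3. According to the study's methods, both strains belong to a library built on a MATa parent without its chromosomal H2A and H2B genes, so that the H2B of either strain comes from a single copy plasmid. Rapamycin inhibits the TOR kinase complex that couples growth to nutrients.

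In budding yeast, electrons from NADH and succinate pass through complex III, cytochrome c and complex IV to oxygen, and the ATP synthase uses the proton gradient that results. This yeast has no proton-pumping complex I and oxidises NADH with single-subunit dehydrogenases. Glucose represses many of these genes, and the Hap2/3/4/5 complex activates them when cells respire. Subunits encoded in the mitochondrial genome were not analysed here.

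Values are log2 signals, on which a difference of 1 is a 2-fold change, and levels of different genes are not compared because each probe set binds with its own strength. All 37 genes were above the 95th percentile of the probe sets for fission yeast (1.37) on each of the 12 arrays. The median signal of all tested probe sets was between 7.25 and 7.30 on each array, while the mean of the 12 poly-A spike-in probe sets, RNA added to each sample, ranged between 4.35 and 5.93. HTB1, the H2B gene on the plasmid, was between 11.98 and 12.40 on all arrays and cannot tell the mutant from the wild type. Of 6 a-cell markers, 5 were lower in H2B R95A at an adjusted p under 0.05 in both conditions, with a mean over the 6 between 4.59 and 5.72 on the H2B R95A arrays and between 8.51 and 10.36 on the H2B WT arrays. MATa cells express these genes, so in this respect the H2B R95A arrays go against the mating type of the parent. The 4 alpha-cell markers measured were also all lower in H2B R95A. Their median log2 fold changes were -0.86 untreated and -0.81 with rapamycin, and none passed the test. The smallest change was -0.01 untreated and -0.16 with rapamycin. In each condition 3 of the 4 had arrays that did not overlap between the strains. Of all tested probe sets, 6.91% untreated and 4.38% with rapamycin had such arrays. The a-cell markers were thus far lower, with medians of -4.54 untreated and -4.11 with rapamycin, and the alpha-cell markers less so. The reason was not tested. No source says whether the arrays of a group came from separate cultures, so p-values measure only the spread between these arrays.

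The 37 genes differed more between replicate numbers than between strains or with rapamycin. The mean over the 37 was 11.14, 10.40 and 10.78 in replicates 1, 2 and 3 of H2B R95A with rapamycin and 11.01, 10.44 and 10.68 in those of H2B WT with rapamycin. It was 11.21, 9.66 and 10.15 in untreated H2B R95A and 11.17, 9.95 and 10.81 in untreated H2B WT. Replicate 1 was highest, replicate 3 came next and replicate 2 was lowest in each group. The group means of these values were 10.78 ± 0.37 in H2B R95A with rapamycin, 10.71 ± 0.28 in H2B WT with rapamycin, 10.34 ± 0.79 in untreated H2B R95A and 10.64 ± 0.63 in untreated H2B WT (SD, n = 3 each), and they overlapped within their spread.

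**Figure D1:**
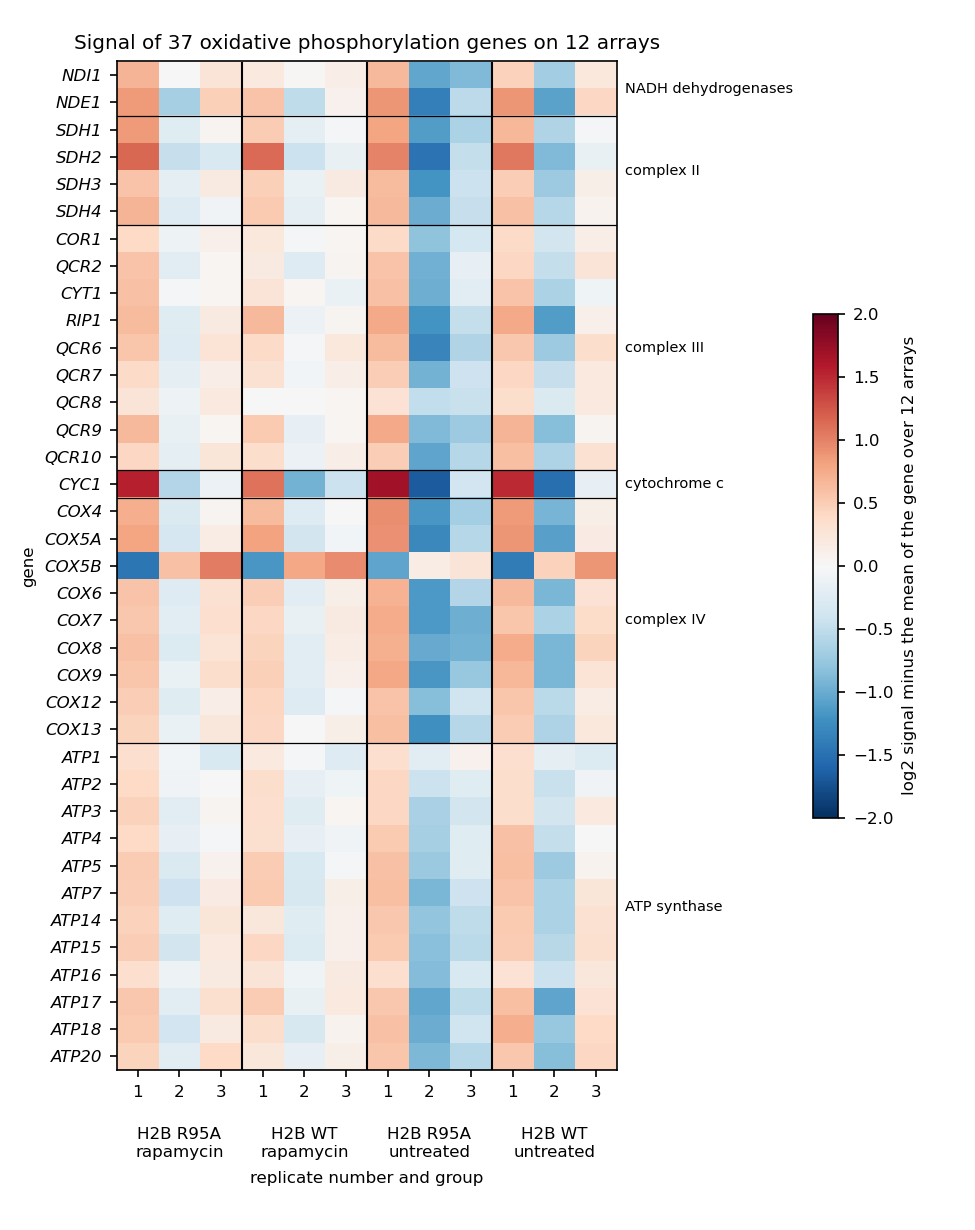
Log2 signal of the 37 genes (rows, grouped by complex) on the 12 arrays (columns, by group and replicate number), each gene centred on its mean over the arrays, with red above and blue below that mean. Replicate 1 is red and replicate 2 of untreated H2B R95A is blue for most genes, and COX5B runs the other way in replicate 1.

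The replicate number was tested for each gene with limma, in a model with group and number, by an F test adjusted with the Benjamini-Hochberg method over the 5498 probe sets tested. It passed an adjusted p under 0.05 for 36 of the 37 genes, where 35.1% of all tested probe sets passed. QCR8, a small subunit of complex III, was the exception (adjusted p = 0.105). The order of replicate 1 over 3 over 2 held in all 4 groups for 33 of the 37 genes, against 4.51% of all tested probe sets, and did not hold for CYT1, QCR8, COX5B and ATP1. All 4 replicate 1 arrays were above the 8 other arrays for 30 of the 37 genes, where 11.5% of tested probe sets had this pattern, and they were below the 8 others for 1, COX5B, where 9.46% did. The replicate number held a median of 75.07% of a gene's total variance over the arrays and the 4 groups held 10.94%, against 38.06% and 26.25% over all tested probe sets. If 1 culture or day gave all arrays of a number, the test compares 3 such units and not separate samples.

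The difference between replicate 1 and the mean of replicates 2 and 3, averaged over the groups, had a median of 0.79 over the 37 genes and of 0.00 over all tested probe sets. That replicate 1 stands apart was known beforehand, so this difference is a description without a test. Its median was 0.97 for the NADH dehydrogenases, 0.99 for complex II, 0.70 for complex III, 0.90 for complex IV and 0.67 for the ATP synthase, and it was 2.17 for cytochrome c. The ATP synthase genes lay between 0.45 (ATP16) and 0.82 (ATP5), a narrower range than that of complex IV, which ran between -1.91 (COX5B) and 1.27 (COX5A). The 3′ minus 5′ signal of the ACT1 control probe sets, which grows as RNA degrades, was between 0.74 and 0.78 in replicate 1 and between 0.42 and 0.74 in the others, and that of the RIP1 control probe sets was between 0.09 and 0.24 in replicate 1 and between 0.02 and 0.25 in the others. Their part in the result was not tested. When arrays were centred on the spike-in probe sets instead, the median difference was 0.49 over the 37 genes and -0.29 over all tested probe sets, 36 of the 37 were still higher in replicate 1, but 1 of the 37 in place of 30 had its replicate 1 arrays above all others (0.909% of all tested probe sets), and 2 genes, CYC1 and COX5B, passed the F test, where 2.53% of probe sets did.

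The 2 isoforms of subunit 5 of cytochrome c oxidase moved in opposite directions. COX5A (YNL052W) encodes the form made in air and COX5B (YIL111W) the form made when oxygen is low. COX5A was 11.40, 10.29 and 10.77 in H2B R95A with rapamycin, 11.43, 10.26 and 10.56 in H2B WT with rapamycin, 11.53, 9.34 and 10.05 in untreated H2B R95A and 11.50, 9.53 and 10.78 in untreated H2B WT. COX5B was 7.63, 9.67 and 10.10 in H2B R95A with rapamycin, 7.91, 9.86 and 10.03 in H2B WT with rapamycin, 8.02, 9.22 and 9.33 in untreated H2B R95A and 7.68, 9.55 and 9.97 in untreated H2B WT. COX5A was thus at its highest and COX5B at its lowest on the 4 replicate 1 arrays, with no overlap with the 8 other arrays in either gene. The number effect had an adjusted p of 0.00165 for COX5A and of 0.000244 for COX5B, and number took 82.86% and 93.39% of their variance. COX5B correlated at -0.59 with the mean of the other 36 genes over the 12 arrays, which share their normalization.

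CYC1 (YJR048W), iso-1-cytochrome c, the carrier between complexes III and IV, spanned the widest range. It was 10.74, 8.60 and 9.07 in H2B R95A with rapamycin, 10.27, 8.25 and 8.76 in H2B WT with rapamycin, 10.86, 7.53 and 8.80 in untreated H2B R95A and 10.68, 7.69 and 9.03 in untreated H2B WT. The replicate 1 arrays, at 10.27 or more, were all above the others, at 9.07 or less. The number effect had an adjusted p of 0.000239. CYC7, the gene of iso-2-cytochrome c, which is favoured at low oxygen, was chosen for mention after its values were seen. It was 9.99, 11.36 and 11.77 in H2B R95A with rapamycin, 9.72, 11.46 and 11.71 in H2B WT with rapamycin, 10.08, 10.66 and 10.27 in untreated H2B R95A and 9.69, 11.10 and 11.74 in untreated H2B WT, lowest on the replicate 1 arrays, with a number effect of adjusted p = 0.00602. The cytochrome c pair was therefore split across the replicates in the same sense as the COX5 pair.

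**Figure D2:**
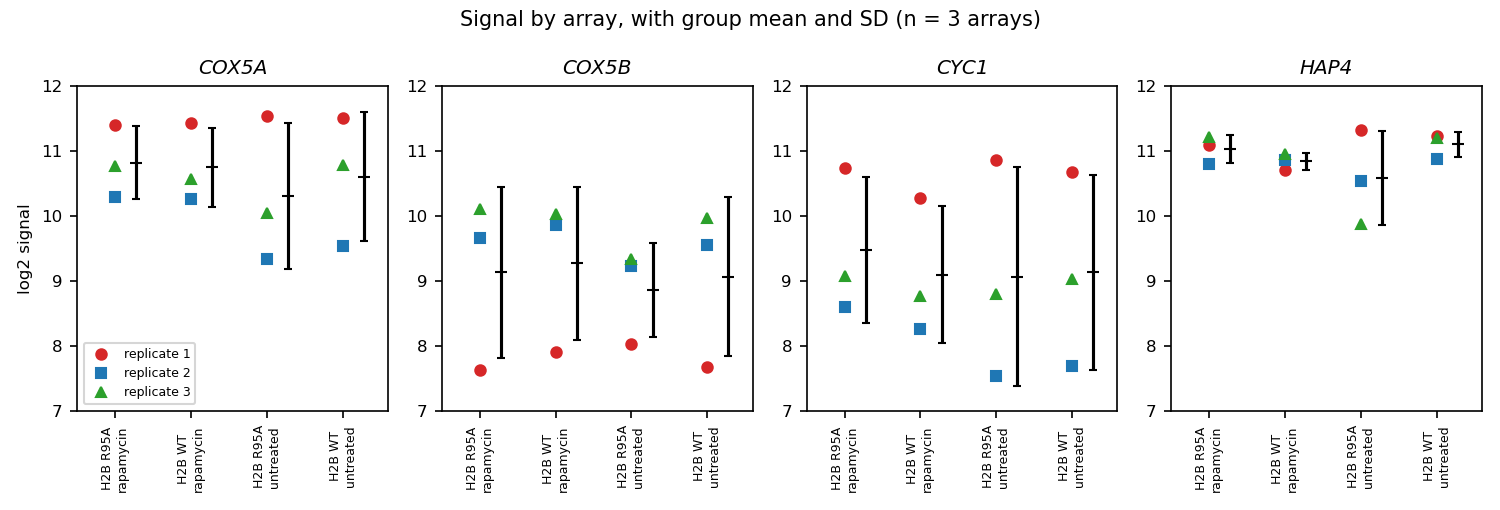
Log2 signal (vertical axis) of COX5A, COX5B, CYC1 and HAP4 by group (horizontal axis), 1 symbol per array coloured by replicate number, with the group mean and SD (n = 3) beside the points. COX5B is between 7.63 and 8.02 in replicate 1 and at 9.22 or more elsewhere, while HAP4 shows no such gap.

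The NADH dehydrogenases followed the same order of replicates. NDI1 (YML120C), which faces the matrix, was 10.71, 10.02 and 10.28 in H2B R95A with rapamycin, 10.22, 10.05 and 10.16 in H2B WT with rapamycin, 10.68, 8.99 and 9.14 in untreated H2B R95A and 10.48, 9.32 and 10.24 in untreated H2B WT. NDE1, which faces the intermembrane space, was 11.21, 9.69 and 10.83 in H2B R95A with rapamycin, 10.92, 9.84 and 10.44 in H2B WT with rapamycin, 11.23, 8.98 and 9.83 in untreated H2B R95A and 11.23, 9.29 and 10.77 in untreated H2B WT. In both, untreated H2B R95A was low in replicates 2 and 3, and for NDI1 these were the 2 lowest of the 12 arrays. NDI1 passed the number test narrowly (adjusted p = 0.0444), with 48.15% of its variance by number and 23.85% by group.

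Complex II passes electrons from succinate to the quinone pool. SDH2, its iron-sulfur subunit, was 11.62, 10.01 and 10.16 in H2B R95A with rapamycin, 11.60, 10.03 and 10.32 in H2B WT with rapamycin, 11.45, 9.00 and 9.99 in untreated H2B R95A and 11.52, 9.58 and 10.33 in untreated H2B WT. It had the largest difference of its complex between replicate 1 and the others (1.62). SDH3, a membrane anchor, was 11.36, 10.61 and 10.96 in H2B R95A with rapamycin, 11.25, 10.66 and 10.97 in H2B WT with rapamycin, 11.41, 9.59 and 10.35 in untreated H2B R95A and 11.27, 10.06 and 10.90 in untreated H2B WT. SDH4, the other anchor, was 11.47, 10.54 and 10.72 in H2B R95A with rapamycin, 11.32, 10.60 and 10.83 in H2B WT with rapamycin, 11.44, 9.79 and 10.33 in untreated H2B R95A and 11.38, 10.22 and 10.86 in untreated H2B WT. The replicate 1 arrays stood above all others in each of the 4 genes, including SDH1, the flavoprotein subunit, with 9.43 to 11.40 over the arrays.

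In complex III, RIP1, the Rieske iron-sulfur protein, was 10.64, 9.77 and 10.18 in H2B R95A with rapamycin, 10.66, 9.88 and 10.06 in H2B WT with rapamycin, 10.77, 8.81 and 9.53 in untreated H2B R95A and 10.76, 8.88 and 10.11 in untreated H2B WT. The array carries control probe sets for RIP1 that are separate from the one counted here, and its 3′ control gave 10.49, 9.62 and 9.97 in H2B R95A with rapamycin, 10.30, 9.63 and 9.79 in H2B WT with rapamycin, 10.53, 8.59 and 9.15 in untreated H2B R95A and 10.58, 8.67 and 9.91 in untreated H2B WT. Both probe sets put replicate 1 highest and replicate 2 lowest in each group. QCR8 was 11.41, 11.06 and 11.35 in H2B R95A with rapamycin, 11.16, 11.16 and 11.19 in H2B WT with rapamycin, 11.44, 10.67 and 10.71 in untreated H2B R95A and 11.51, 10.86 and 11.35 in untreated H2B WT, with the smallest replicate 1 difference of the complex (0.34). CYT1, cytochrome c1, was 10.87, 10.25 and 10.32 in H2B R95A with rapamycin, 10.55, 10.33 and 10.16 in H2B WT with rapamycin, 10.88, 9.31 and 10.06 in untreated H2B R95A and 10.86, 9.65 and 10.20 in untreated H2B WT. In H2B WT with rapamycin these 2 genes departed from the usual order, since QCR8 had its 3 arrays between 11.16 and 11.19 and CYT1 had replicate 3 below replicate 2.

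The remaining small subunits and the core of complex III kept the order of replicates. QCR2, a core subunit, was 11.12, 10.34 and 10.59 in H2B R95A with rapamycin, 10.73, 10.29 and 10.59 in H2B WT with rapamycin, 11.11, 9.58 and 10.39 in untreated H2B R95A and 10.96, 10.07 and 10.80 in untreated H2B WT. QCR6, the acidic subunit that assists the binding of cytochrome c1 to cytochrome c, was 11.19, 10.39 and 10.91 in H2B R95A with rapamycin, 11.02, 10.59 and 10.85 in H2B WT with rapamycin, 11.28, 9.32 and 10.04 in untreated H2B R95A and 11.17, 9.91 and 10.99 in untreated H2B WT. QCR7 was 11.99, 11.42 and 11.74 in H2B R95A with rapamycin, 11.91, 11.56 and 11.74 in H2B WT with rapamycin, 12.10, 10.67 and 11.20 in untreated H2B R95A and 12.02, 11.15 and 11.81 in untreated H2B WT. These 3 genes had their lowest signal in replicate 2 of untreated H2B R95A, and their replicate 1 arrays were the highest of each group. QCR9 was 11.13, 10.34 and 10.52 in H2B R95A with rapamycin, 11.01, 10.32 and 10.52 in H2B WT with rapamycin, 11.24, 9.60 and 9.76 in untreated H2B R95A and 11.16, 9.63 and 10.53 in untreated H2B WT. QCR10 was 11.23, 10.63 and 11.07 in H2B R95A with rapamycin, 11.18, 10.71 and 10.96 in H2B WT with rapamycin, 11.32, 9.77 and 10.25 in untreated H2B R95A and 11.42, 10.21 and 11.13 in untreated H2B WT. COR1, the other core subunit, lay between 10.28 and 11.47 over the arrays.

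Complex IV reduces oxygen. COX7 was 11.56, 10.80 and 11.36 in H2B R95A with rapamycin, 11.43, 10.87 and 11.20 in H2B WT with rapamycin, 11.76, 9.87 and 10.04 in untreated H2B R95A and 11.58, 10.38 and 11.38 in untreated H2B WT. COX8 was 10.91, 10.05 and 10.60 in H2B R95A with rapamycin, 10.77, 10.11 and 10.46 in H2B WT with rapamycin, 11.03, 9.32 and 9.38 in untreated H2B R95A and 11.06, 9.41 and 10.77 in untreated H2B WT. COX9 was 11.27, 10.58 and 11.07 in H2B R95A with rapamycin, 11.19, 10.49 and 10.81 in H2B WT with rapamycin, 11.49, 9.55 and 9.96 in untreated H2B R95A and 11.38, 9.80 and 11.00 in untreated H2B WT. All 3 had replicate 3 of untreated H2B R95A below replicate 3 of the other groups by more than its distance to replicate 2 of its own group. COX13 was 11.25, 10.68 and 11.05 in H2B R95A with rapamycin, 11.23, 10.82 and 10.92 in H2B WT with rapamycin, 11.42, 9.59 and 10.24 in untreated H2B R95A and 11.32, 10.19 and 11.03 in untreated H2B WT. COX4, COX6 and COX12, further nuclear subunits, spanned 9.48 to 11.58, 9.44 to 11.29 and 10.21 to 11.62, with replicate 2 of untreated H2B R95A the lowest in each.

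The ATP synthase has a catalytic head, a rotating central stalk, a stator and a membrane part. ATP1 (YBL099W), the α subunit, was 11.93, 11.54 and 11.29 in H2B R95A with rapamycin, 11.79, 11.55 and 11.34 in H2B WT with rapamycin, 11.92, 11.37 and 11.68 in untreated H2B R95A and 11.93, 11.41 and 11.32 in untreated H2B WT. ATP2, the catalytic β subunit, was 11.86, 11.40 and 11.48 in H2B R95A with rapamycin, 11.82, 11.31 and 11.38 in H2B WT with rapamycin, 11.88, 11.04 and 11.23 in untreated H2B R95A and 11.82, 11.02 and 11.41 in untreated H2B WT. ATP1 had replicate 1 highest in each group, but replicate 3 was the lowest in 3 groups and not in untreated H2B R95A, and its correlation with the mean of the other 36 genes was 0.58. Apart from COX5B and ATP1, each gene correlated at 0.91 or more with the mean of the others (12 arrays that share their normalization). ATP4, subunit b of the stator, was 11.18, 10.60 and 10.73 in H2B R95A with rapamycin, 11.09, 10.61 and 10.71 in H2B WT with rapamycin, 11.29, 10.11 and 10.53 in untreated H2B R95A and 11.35, 10.30 and 10.78 in untreated H2B WT. ATP5, the subunit that joins the stator to the head, was 11.04, 10.25 and 10.62 in H2B R95A with rapamycin, 11.04, 10.24 and 10.52 in H2B WT with rapamycin, 11.12, 9.79 and 10.29 in untreated H2B R95A and 11.14, 9.81 and 10.61 in untreated H2B WT. ATP7, subunit d, was 11.37, 10.46 and 11.03 in H2B R95A with rapamycin, 11.39, 10.55 and 10.99 in H2B WT with rapamycin, 11.47, 9.95 and 10.45 in untreated H2B R95A and 11.44, 10.24 and 11.12 in untreated H2B WT. In these 3 genes replicate 1 was above all other arrays. ATP14, subunit h, was 11.05, 10.35 and 10.84 in H2B R95A with rapamycin, 10.83, 10.35 and 10.70 in H2B WT with rapamycin, 11.13, 9.80 and 10.09 in untreated H2B R95A and 11.11, 9.96 and 10.90 in untreated H2B WT. ATP17, subunit f, was 10.52, 9.76 and 10.30 in H2B R95A with rapamycin, 10.49, 9.83 and 10.19 in H2B WT with rapamycin, 10.53, 8.95 and 9.47 in untreated H2B R95A and 10.59, 8.93 and 10.27 in untreated H2B WT. ATP18, subunit i/j, was 10.42, 9.52 and 10.07 in H2B R95A with rapamycin, 10.26, 9.59 and 9.98 in H2B WT with rapamycin, 10.49, 8.92 and 9.50 in untreated H2B R95A and 10.63, 9.15 and 10.30 in untreated H2B WT. Replicate 2 of untreated H2B R95A was lowest for ATP14 and ATP18, and for ATP17 it was level with replicate 2 of untreated H2B WT. ATP20, subunit g, which takes part in dimer formation, was 10.91, 10.26 and 10.86 in H2B R95A with rapamycin, 10.69, 10.30 and 10.57 in H2B WT with rapamycin, 11.01, 9.56 and 9.89 in untreated H2B R95A and 10.99, 9.61 and 10.88 in untreated H2B WT, with its lowest signal in replicate 2 of untreated H2B R95A. ATP3, ATP15 and ATP16, the γ, ε and δ subunits of the central stalk, spanned 10.36 to 11.47, 10.12 to 11.49 and 10.20 to 11.40.

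Replicate 2 of untreated H2B R95A held the lowest signal of 33 of the 37 genes, where 20.7% of all tested probe sets had their lowest signal there. The highest signal was on replicate 1 of untreated H2B R95A for 21 genes, on replicate 1 of H2B R95A with rapamycin for 8 and on replicate 1 of untreated H2B WT for 7, with COX5B the exception.

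Whether H2B R95A differed from H2B WT before treatment was asked with limma, with adjustment over all tested probe sets. None of the 37 genes passed an adjusted p under 0.05, where 0.400% of all tested probe sets did (lowest adjusted p = 0.746, QCR8). Cyber-T, the test that the study's methods name, called none of the 37 in this or the other 3 comparisons of 2 groups. None reached 2-fold with an unadjusted p of at most 0.01, the study's threshold, where 0.964% did, none had an unadjusted p under 0.05, where 4.93% did, and none had arrays of the 2 strains that did not overlap, where 6.91% did. The log2 fold changes had a median of -0.31, against -0.04 over all tested probe sets, and 36 of the 37 were below 0. They ran between -0.56 (COX7, SE 0.48, adjusted p = 0.755 by limma) and 0.10 (ATP1, SE 0.25, adjusted p = 0.906). The 5 lowest were COX7, COX8, QCR6, QCR10 and COX13, and the 5 highest CYT1, ATP5, CYC1, ATP2 and ATP1.

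Arrays of the same replicate number gave different answers. H2B R95A minus H2B WT had a median over the 37 genes of 0.03 in replicate 1, of -0.29 in replicate 2 and of -0.64 in replicate 3, and the difference was above 0 for 28, 2 and 1 of the 37 genes. The largest was -1.39 for COX8 in replicate 3, and the gene that went the other way there was ATP1 (0.36). With an untreated H2B R95A array left out, the median over the 37 was -0.77 (replicate 1), 0.03 (replicate 2) or -0.21 (replicate 3). With an untreated H2B WT array left out it was -0.06 (replicate 1), -0.67 (replicate 2) or -0.22 (replicate 3). In the first of these fits COX7 reached the study's threshold (log2 fold change -1.16, adjusted p = 0.133 by limma) and no other of the 37 did. The share of all tested probe sets at that threshold was not counted there. Each of these fits also left the replicate numbers unbalanced between the strains.

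With rapamycin the median difference between the strains was smaller, but the test of this contrast, given below, called none of the 37 genes. None of the 37 genes passed the test, where 0.346% of all tested probe sets did (adjusted p of 1 for each, by limma), none reached the study's threshold, where 0.691% did, none had an unadjusted p under 0.05, where 1.51% did, and none had arrays that did not overlap, where 4.38% did. The median log2 fold change was 0.05, against 0.02 over all tested probe sets, with 31 of the 37 above 0, and the range ran between -0.14 (COX5B, SE 0.80) and 0.38 (CYC1, SE 0.95). SDH2, ATP7, QCR7 and SDH4 followed at the lower end, and NDI1, NDE1, ATP20 and QCR2 at the upper end. Within replicate numbers the medians were 0.10, -0.05 and 0.10 in replicates 1, 2 and 3. The sign of the median log2 fold change turned in some fits with 1 array left out. It was -0.13 without replicate 1 of H2B R95A (4 of the 37 above 0) and -0.09 without replicate 2 of H2B WT (8 above 0). It was 0.24 without replicate 2 of H2B R95A and 0.23 without replicate 1 of H2B WT (36 above 0 in each). Without replicate 3 it was 0.07 (H2B R95A) or 0.04 (H2B WT). With spike-in centring, under which all tested probe sets had a median of -0.35, the median over the 37 was -0.32, so its sign relative to 0 depends on the scaling.

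In H2B R95A, the response to rapamycin passed the test for none of the 37 genes and for 0% of all tested probe sets with limma, while cyber-T called 261 of all tested probe sets and none of the 37. None reached the study's threshold, where 5.15% did, and none had an unadjusted p under 0.05, where 17.3% did, or arrays without overlap, where 17.9% did. The log2 fold changes had a median of 0.42, against 0.10 over all tested probe sets, and were above 0 for 36 of the 37. NDI1 had the largest (0.73, SE 0.43, adjusted p = 0.403 by limma), followed by COX7, COX9, QCR6 and COX8, with 0.69 to 0.61. ATP1 had the lowest (-0.07), followed by ATP4, ATP2, ATP5 and COX5B, with 0.20 to 0.27. The intervals were wide, with 95% limits that held 0 for each gene and also held a 2-fold rise for 32 of the 37, so that this fit excluded neither for these genes. It had no term for replicate number. With a replicate block the median SE over the 37 was 0.21 in place of 0.43, and limits were not computed for that fit.

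The median change with rapamycin in H2B R95A was -0.08 in replicate 1, 0.75 in replicate 2 and 0.66 in replicate 3. It was above 0 for 8 of the 37 genes in replicate 1, for 37 in replicate 2 and for 36 in replicate 3, where ATP1 was at -0.39. Without replicate 1 of untreated H2B R95A, the median was 0.95 and NDI1 (1.27, adjusted p = 0.0351 by limma) and COX7 (1.29, adjusted p = 0.0437) passed the test, where 5.27% of all tested probe sets passed as higher. That fit kept replicate 1 among the rapamycin arrays only, so the replicate numbers were unbalanced. Without all replicate 1 arrays the median was 0.65 and none of the 37 passed, where 5.75% passed as higher (NDI1, adjusted p = 0.0552 by limma). With array quality weights NDI1 passed (1.03, adjusted p = 0.042), where 8.17% did. The replicate 1 arrays had the lowest weights, between 0.256 and 0.548, against 0.794 or more on the others. The weighted fit is therefore not separate from the fit without replicate 1. Without replicate 2 of untreated H2B R95A the median was 0.10, and without its replicate 3 it was 0.35. With a rapamycin array left out it was 0.24 (replicate 1), 0.63 (replicate 2) or 0.48 (replicate 3).

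**Figure D3:**
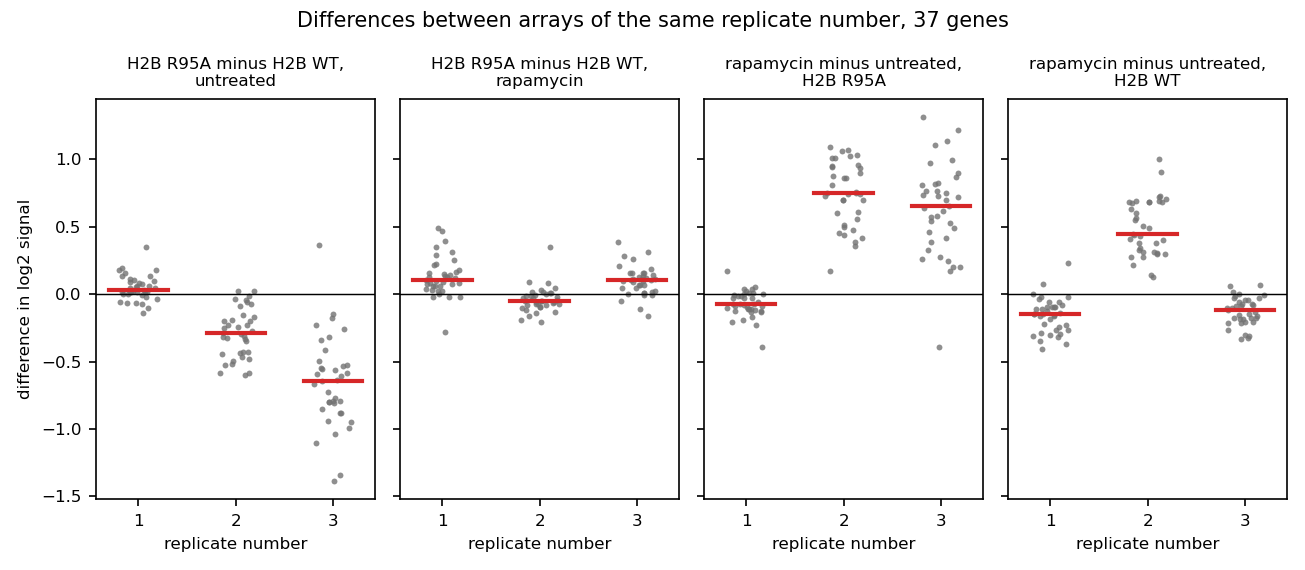
Difference in log2 signal (vertical axis) between 2 arrays of the same replicate number (horizontal axis), 1 point per gene with the median of the 37 genes as a red line, for each comparison. In H2B R95A the response to rapamycin is near 0 in replicate 1 and has medians of 0.75 and 0.66 in replicates 2 and 3, while in H2B WT its median is 0.45 in replicate 2 and below 0 in replicates 1 and 3.

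In H2B WT, none of the 37 genes passed the test for rapamycin against untreated, nor did any other tested probe set (0%) with limma, and cyber-T called 7 of all tested probe sets, none of them among the 37. None reached the study's threshold, where 0.509% did, none had an unadjusted p under 0.05, where 4.27% did, and none had arrays without overlap, where 7.69% did. The median change was 0.08, against 0.04 over all tested probe sets, with 27 of the 37 above 0 and a range between -0.08 (ATP18) and 0.28 (RIP1, SE 0.54, adjusted p of 1 by limma). Next to RIP1 at the upper end came ATP17, SDH3, COX5B and QCR9, and next to ATP18 at the lower end QCR2, QCR8, ATP14 and CYC1. Within replicate numbers the median was -0.15 in replicate 1, 0.45 in replicate 2 and -0.12 in replicate 3, and the change was above 0 for 3, 37 and 3 of the 37 genes. RIP1 had the largest difference of a single pair (1.00 in replicate 2). Leaving out a rapamycin array gave a median of -0.09 (replicate 1), 0.20 (replicate 2) or 0.12 (replicate 3). Leaving out an untreated array gave 0.36 (replicate 1), -0.27 (replicate 2) or 0.14 (replicate 3).

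The difference between the responses, H2B R95A minus H2B WT, was tested as an interaction. None of the 37 genes passed, nor did any tested probe set (0%). None reached 2-fold with an unadjusted p of at most 0.01, where 0.0182% did, and none had an unadjusted p under 0.05, where 0.146% did. The median was 0.36, against 0.05 over all tested probe sets, with 36 of the 37 above 0, between -0.08 (ATP1) and 0.63 (COX7, SE 0.68, adjusted p of 1 by limma). This median moved most when a replicate 1 or 2 array was left out, which unbalances the replicate numbers. It was 0.81 or 0.03 with replicate 1 or 2 of untreated H2B R95A left out (36 and 21 of the 37 above 0), and 0.14 or 0.73 with replicate 1 or 2 of untreated H2B WT left out (25 and 35 above 0). Among the rapamycin arrays it was 0.18 or 0.57 with replicate 1 or 2 of H2B R95A left out, and 0.55 or 0.23 with replicate 1 or 2 of H2B WT left out. With replicate 3 left out it was 0.29 (untreated H2B R95A), 0.30 (untreated H2B WT), 0.38 (H2B R95A with rapamycin) or 0.34 (H2B WT with rapamycin). With the replicate block it was 0.36. The 95% limits reached 1.34 to either side of the estimate at the median, against 0.95 for a comparison of 2 groups, and were narrowest for ATP1 (0.77) and widest for CYC1 (2.97).

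**Figure D4:**
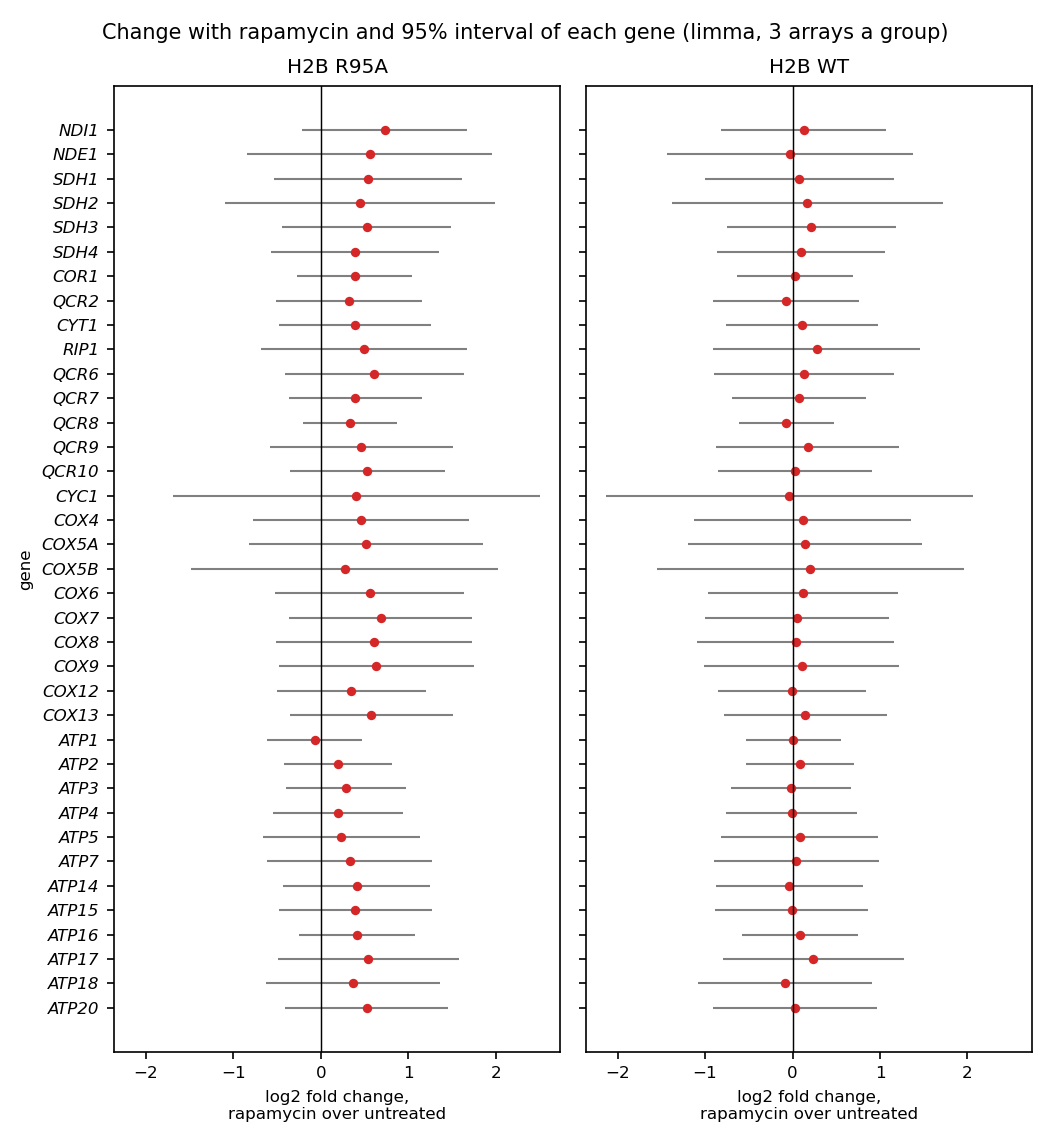
Log2 fold change of each of the 37 genes with rapamycin against untreated (horizontal axis, point) and its 95% interval from limma (line, 3 arrays a group, no replicate block), H2B R95A on the left and H2B WT on the right. Each interval crosses 0, and the points lie between -0.07 and 0.73 in H2B R95A and between -0.08 and 0.28 in H2B WT.

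HAP4, the regulated activating subunit of the Hap2/3/4/5 complex, did not follow the replicates as the 37 genes did. It was 11.09, 10.80 and 11.22 in H2B R95A with rapamycin, 10.70, 10.86 and 10.95 in H2B WT with rapamycin, 11.32, 10.54 and 9.88 in untreated H2B R95A and 11.23, 10.88 and 11.19 in untreated H2B WT, and replicate 3 of untreated H2B R95A was the lowest of the 12 arrays. Its number effect had an adjusted p of 0.505 and its correlation with the mean of the 37 genes was 0.65 over the 12 arrays. Its log2 fold change was -0.52 (SE 0.31, adjusted p = 0.733 by limma) in untreated H2B R95A against H2B WT and 0.46 (adjusted p = 0.464) with rapamycin in H2B R95A. Among 17 regulators of respiratory genes, 6 passed the number test, a share near the 35.1% of all tested probe sets. The largest differences were those of MIG1 and MIG2, repressors of glucose-repressed genes (-1.67 and -1.59 in replicate 1 against the others), and of ADR1, an activator of ethanol use (1.20).

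The genes whose signal was most like the mean of the 37, out of all genes outside the set, were TIM11 (Pearson r of 0.99), INH1 (0.99), OM14 (0.98), SNA2 (0.98) and AIM33 (0.98), over 12 arrays. TIM11 encodes subunit e of the ATP synthase and INH1 the inhibitor protein of its hydrolysis. TIM11 was 11.09, 10.34 and 10.87 in H2B R95A with rapamycin, 10.95, 10.50 and 10.76 in H2B WT with rapamycin, 11.24, 9.60 and 9.98 in untreated H2B R95A and 11.26, 9.89 and 10.92 in untreated H2B WT. Replicate 1 was above all other arrays in TIM11 as in most of the 37 genes.

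Other genes of the pathway were counted in the same way. Of 19 further genes of oxidative phosphorylation and its carriers, 14 passed the number test and 16 were higher in replicate 1, with the largest differences for SHH3 (2.20), a homolog of a complex II anchor, AAC1 (2.01), an ADP/ATP carrier, and NDE2 (1.93), the second external NADH dehydrogenase. Of 11 genes of the tricarboxylic acid cycle, 9 passed and all were higher in replicate 1, led by KGD1 (1.39), FUM1 (1.09) and ACO1 (0.82). Assembly factors, which build the complexes but are not part of them, did not share this pattern, as 17 of 48 passed, also near the 35.1% of all tested probe sets, with 23 higher and 25 lower in replicate 1. Of 8 genes of haem synthesis 4 passed, among them HEM1 (1.18), HEM13 (-1.17) and HEM14 (-1.10). Of 9 hypoxic genes 7 passed and 8 were lower in replicate 1, with ANB1 at -2.82 and TIR1 at -2.26, while OLE1 was higher (1.43). CYC7 and AAC3 were also among the 19 further genes and HEM13 among those of haem synthesis, so they were counted more than once.

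The genes of sugar use were set beside these. All 12 glucose-repressed genes passed the number test and were higher in replicate 1, with a median difference of 3.35, and SFC1 (5.87), FBP1 (5.44) and PCK1 (4.81) led them. Their mean signal was between 10.91 and 11.08 on the replicate 1 arrays and between 6.48 and 8.91 on the others. All 15 genes of glycolysis and fermentation had a lower mean in replicate 1, and 6 passed, a share near the 35.1% of all tested probe sets, with ENO2 (-1.41), PDC1 (-0.74) and GPM1 (-0.69) at the lower end. What the number stands for in the cultures is not stated, and its part in the signals of the 37 genes beyond these values was not tested.

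In the comparisons of strain and rapamycin, no member of these pathway lists passed the test. With rapamycin in H2B R95A, the largest changes of the further genes were those of SHH3 (2.07, SE 1.20, adjusted p = 0.395 by limma), SHH4, another homolog of a complex II anchor (1.96, SE 0.52, adjusted p = 0.114), and NDE2 (1.58, adjusted p = 0.4). SHH4 was the only 1 of the 19 further genes at the study's threshold, where 5.15% of all tested probe sets reached it. The glucose-repressed genes had a median change of 1.32 with rapamycin in H2B R95A, with all 12 above 0 and none past the test. The median over all tested probe sets was 0.10 there. This change differed between replicates. The mean signal of the 12 was 11.08 with rapamycin and 11.06 untreated in replicate 1, against 8.91 and 6.48 in replicate 3. In replicate 2 it was also higher with rapamycin. In H2B WT the median change of the 12 was 0.18, with 8 above 0, against 0.04 over all tested probe sets.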

How the data were processed

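Biotin-labelled RNA was hybridised to 12 Affymetrix Yeast Genome 2.0 arrays. The deposited log2 signals were made by the authors in FlexArray with RMA, which corrects background, normalizes by quantiles over all arrays and summarises probe sets, so a shift of all genes between arrays is removed. All 12 columns were mapped to samples. Of 10928 probe sets, 5498 annotated with 1 S. cerevisiae gene (5449 genes) were tested, and 3517 not listed, 1747 fission yeast and 166 control probe sets were not.

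R 4.3.3 and limma 3.58.1 (lmFit, eBayes with a trend) fitted group means over 12 arrays, with Benjamini-Hochberg adjustment. Replicate number was an F test in a model with group. Cyber-T, which the study's methods name without its settings, was an alternative, with window 101 and confidence 10 chosen here. Both were tested on simulated data with independent noise. Further alternatives were no trend, array weights, 3 scalings, a filter on dim probe sets, fewer arrays, a replicate block and the mean of probe sets.

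The members and lists were chosen with earlier results of these data known. By rule, all 37 genes are named, with values on each array for COX5A, COX5B, CYC1 and the 5 highest and 5 lowest of each comparison, up to 3 genes of each other list, HAP4, and the 5 genes most like the mean. The reported fits of strain and rapamycin did not pair arrays, and the replicate block was only an alternative. As a check, each array's deviation was asked to correlate above 0.1 with that of its same-numbered array, which rests on the labels' numbers and these data. This held between treated strains (0.88, 0.78 and 0.74 for replicates 1, 2 and 3) and for rapamycin in H2B WT (0.84, 0.41 and 0.77), not between untreated strains (0.57, 0.83 and 0.06) or for rapamycin in H2B R95A (0.42, 0.48 and 0.01).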

Additional observations from a re-analysis of the deposited data

How the results depend on the processing

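No strain or rapamycin comparison called any of the 37 genes with limma, and none did with cyber-T in the 4 comparisons of 2 groups or with the replicate block in any of the 5 comparisons. With the block the lowest adjusted p was 0.112 (SDH1, rapamycin in H2B R95A), and the medians over the 37 were as without it, 0.42 for that comparison. Cyber-T made more false calls than limma on simulated data with the spreads of these arrays. That noise was independent between arrays and probe sets, so the simulation did not hold the replicate pattern of these data. Over the arrays left out in turn, the genes lower at the study's threshold in untreated H2B R95A against H2B WT numbered 0 to 1, those higher past the test with rapamycin in H2B R95A 0 to 2, and those higher there at the study's threshold 0 to 3. The upper counts all came without replicate 1 of untreated H2B R95A, where 5.27% of all tested probe sets passed the test as higher with rapamycin in H2B R95A. When arrays were weighted by quality, 1 gene passed the test with rapamycin in H2B R95A, where 8.17% passed as higher, and 1 reached the study's threshold. Without all replicate 1 arrays 1 reached that threshold. The share of all tested probe sets at the study's threshold was not counted in these fits. Without those arrays the medians were -0.48 between untreated strains and 0.65 with rapamycin in H2B R95A, and with weights -0.49 and 0.60. The weighted fit gave the replicate 1 arrays the lowest weights, so it is not separate from the fit without them. The number of genes past the replicate number test was 36 as deposited and 2 with spike-in centring. With spike-in centring the medians were -0.49 between untreated strains, 0.04 and 0.19 with rapamycin in H2B WT and H2B R95A, and 0.17 for the difference, where those of all tested probe sets were -0.22, 0.00, -0.12 and -0.14. Cyber-T and a fit of only the arrays compared were not run for the difference between the responses. The median SE over the 37 was 0.43 as reported for comparisons of 2 groups, 0.34 without all replicate 1 arrays and 0.21 with the replicate block.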
